A study of Drosophila melanogaster with 6 samples.

Results

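The 8 genes described here are *Cnx14D*, *Cnx99A*, *Hsc70-3*, *Gp93*, *Pdi*, *ERp60*, *Sec61alpha* and *Xbp1*. They serve protein entry and folding in the endoplasmic reticulum (ER) of *Drosophila melanogaster*, *Xbp1* as a transcription factor. They were chosen by name, with the values of the 3 overexpression and 3 control libraries already known, out of 15656 genes listed in the deposited table. Because the choice used this contrast, the differences of the 8 genes are given as a description and not as a test. All 8 were found in the table, and all 8 were among the 13196 genes that passed the filter on low levels, a mean of at least 0.5 FPKM (reads of a gene per unit of its length, scaled to the total of the library).

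RNA of whole adult male flies was sequenced at 12 h after infection with *Escherichia coli*, a Gram-negative bacterium sensed by the Imd pathway. The overexpression group was Gal80ts; Tub>lncRNA-CR33942, in which a long non-coding RNA is driven by the ubiquitous tubulin promoter, and the control group was Gal80ts; Tub-Gal4/P{CaryP}attP40. Flies of both groups carried the temperature-sensitive repressor Gal80ts and the Gal4 driver, were 3 to 5 d old, were reared at 18°C and were moved to 29°C for more than 24 h. Both groups were infected, so a response of any gene to infection itself is not measured by this comparison. The study's methods speak of independent biological replicates for its experiments in general, without naming these libraries. The labels do not say how many flies went into a library or whether the 3 libraries of a group came from separate cultures, so errors and p-values cover the spread between these libraries, whatever its source.

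Secreted and membrane proteins enter the ER through the Sec61 channel and fold there with the help of chaperones. Calnexins are membrane-bound lectins that hold glycoproteins carrying a single glucose, Hsc70-3 (the fly BiP) and Gp93 (the fly GRP94) bind unfolded chains, and the disulfide isomerases Pdi and ERp60 form and reshuffle disulfide bonds. When unfolded proteins accumulate, the sensor Ire1 splices the mRNA of the transcription factor Xbp1, which in turn raises many of these genes, a programme known as the unfolded protein response (UPR).

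The libraries held 16894595 to 19423287 reads assigned to genes, with size factors of 0.931 to 1.06. *lncRNA-CR33942* itself, listed under its older symbol pncr016:2R, had 4636 ± 244 normalized counts in overexpression flies and 197 ± 17.1 in control flies (SD, n = 3 each), and all 3 overexpression libraries were above all 3 controls. A normalized count is the number of reads of a gene divided by the size factor of its library. Log2 differences are the overexpression mean minus the control mean of log2(normalized count + 1) from a limma fit across all 13196 genes, and "called" means a Benjamini-Hochberg adjusted p under 0.05 in that fit. Of all genes tested, 8.42% were called, 3.18% as higher and 5.24% as lower in overexpression flies, and for 27.3% the 3 overexpression libraries did not overlap the 3 control libraries. The balance of calls depended on the scaling, with 632 higher and 503 lower after scaling to the library total, against 420 and 691 here.

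Among the 8 ER genes, *Cnx14D* stood apart and the other 7 lay close to their control levels. *Cnx14D* was called higher in overexpression flies, and none of the remaining 7 was. Overexpression and control libraries were fully separate for *Cnx14D* and *Xbp1*, which is 2 of 8 genes. Nothing is read from these counts against the shares of all genes, because the 8 genes were chosen with these values in view. The log2 difference was positive for 4 genes and negative for 4, with a median of -0.0010 beside a median of 0.0059 over all genes tested. Without *Cnx14D* the median of the other 7 was -0.019, and their 95% intervals together spanned -0.26 to 0.17 on the log2 scale, or -16.3% to 12.8% of the control level.

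**Figure D1:**
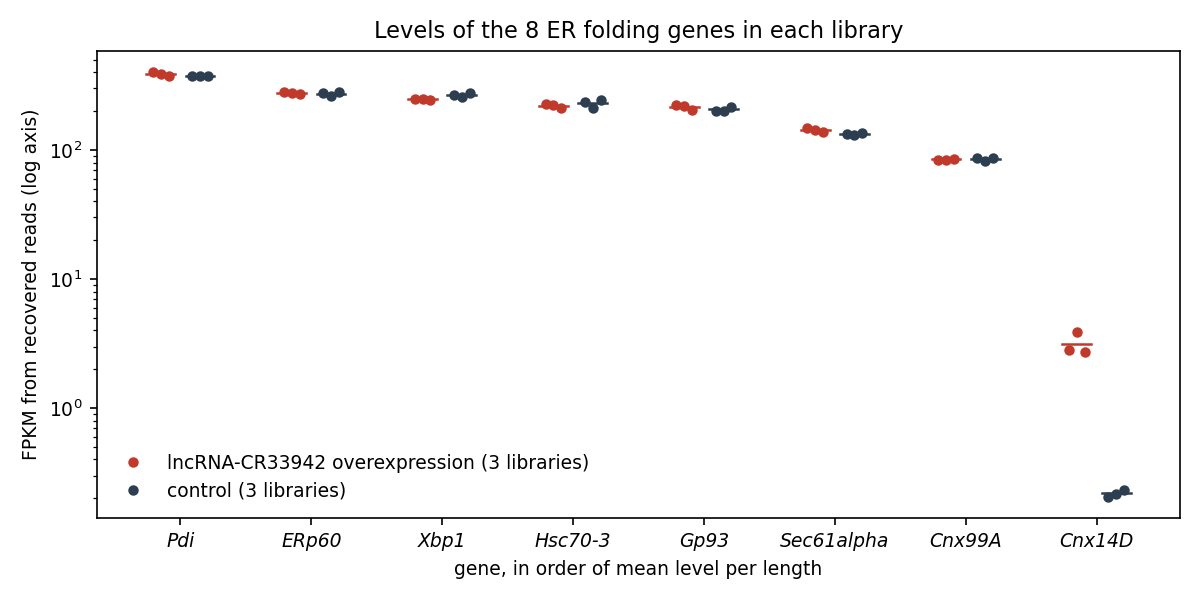
Level of each of the 8 ER folding genes in every library, in FPKM on a log axis, with genes in order of their mean level. Points are libraries (3 overexpression and 3 control) and bars are group means. *Cnx14D* lay at 2.72 to 3.87 FPKM in overexpression libraries and at 0.206 to 0.231 in control libraries, while each of the other 7 genes had group means close together.

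*Cnx14D* (FBgn0264077), a calnexin paralog, lies on chromosome X from 16522967 to 16525415 on the minus strand (dm6 coordinates, as deposited). It had 123, 168 and 118 normalized counts in the overexpression libraries, against 9.14, 9.67 and 10.4 in the control libraries. All 3 overexpression libraries were far above all 3 control libraries, and the second overexpression library was the highest.

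These values came from 124, 165 and 125 reads in overexpression libraries and 9, 9 and 11 reads in control libraries. The control level therefore rests on few reads. The group means were 136 ± 27.4 and 9.75 ± 0.647 normalized counts in overexpression and control flies (SD, n = 3 each), a 14-fold higher mean in overexpression flies. The gene had a log2 difference of 3.66 (standard error 0.23, 95% interval 3.17 to 4.15), rank 14 among the largest positive differences of the 13196 genes. Over the alternative settings in which the gene was tested, the difference lay between 3.50 and 3.80. Its standard error depended on the model, at 0.37 with limma voom, 0.35 with DESeq2 and 0.15 without the intensity trend.

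Per length, *Cnx14D* was a rare transcript in both groups. It averaged 3.14 ± 0.635 FPKM in overexpression flies and 0.218 ± 0.0125 FPKM in control flies. Ranked by mean FPKM over the 6 libraries it was gene 11354 of the 13196 tested. The control mean was under the filter of 0.5 FPKM, so the gene passed through its level in the overexpression libraries, and a large difference was a condition of its being tested.

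*Cnx99A* (FBgn0015622, chromosome 3R, 29315254 to 29319644, minus strand) encodes the calnexin that fly photoreceptors need for the maturation of rhodopsin. It had 4147, 4159 and 4233 normalized counts in overexpression libraries, against 4380, 4175 and 4479 in control libraries. The second control library lay among the overexpression libraries, so the groups overlapped. On the log2 scale the difference was -0.055 (standard error 0.047, 95% interval -0.16 to 0.046).

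*Cnx99A* was by far the more abundant of the pair, at 84.4 ± 0.889 FPKM in overexpression flies and 85.3 ± 2.62 FPKM in control flies. *Cnx14D* made up 3.28%, 4.40% and 3.08% of the summed FPKM of both calnexins in overexpression libraries, against 0.238%, 0.264% and 0.265% in control libraries. Even where it was highest, *Cnx14D* thus added only a small share to the calnexin transcripts. The ratio of *Cnx99A* to *Cnx14D* was 27.6 ± 5.15 in overexpression flies and 391 ± 24.6 in control flies (SD, n = 3 each). Whether reads of one calnexin could be assigned to the other was not tested.

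*Hsc70-3* (FBgn0001218, chromosome X, 11801696 to 11807117, minus strand) encodes the ER HSP70 chaperone BiP, a standard readout of ER stress. It had 14427, 14091 and 13448 normalized counts in overexpression libraries, against 15162, 13840 and 16120 in control libraries. The groups overlapped, since the second control library was lower than the first and second overexpression libraries, and the control libraries were the more spread. This gave a log2 difference of -0.10 (standard error 0.062, 95% interval -0.24 to 0.031), and it moved to between -0.16 and -0.051 when single libraries were left out.

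*Gp93* (FBgn0039562, chromosome 3R, 27948711 to 27952151, plus strand) encodes the ER member of the HSP90 family. It had 11275, 11016 and 10243 normalized counts in overexpression libraries, against 10369, 10417 and 11365 in control libraries. The highest library of the 6 was a control and the lowest an overexpression library, with the others between them. The log2 difference was 0.017 (standard error 0.056, 95% interval -0.11 to 0.14). The last 101 bases of *Gp93* overlap *CG4951* on the other strand, a gene with 213 normalized counts in overexpression flies and 190.5 in control flies, far fewer than *Gp93*.

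The disulfide isomerases were the most abundant of the 8 genes per length. *Pdi* (FBgn0014002, chromosome 3L, 15137738 to 15142840, minus strand) had 16595, 16043 and 15446 normalized counts in overexpression libraries, against 15669, 15693 and 16122 in control libraries. *ERp60* (FBgn0033663, chromosome 2R, 11887568 to 11890979, minus strand), whose mammalian counterpart works beside calnexin on glycoproteins, had 9020, 8895 and 8724 normalized counts in overexpression libraries, against 9035, 8657 and 9314 in control libraries. For both genes the overexpression libraries lay within or just beyond the range of the control libraries.

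The log2 difference of *Pdi* was 0.018 (standard error 0.051, 95% interval -0.093 to 0.13). That of *ERp60* was -0.019 (standard error 0.048, 95% interval -0.12 to 0.085). The sign of these small differences was not stable, since *Pdi* turned negative in 1 alternative setting, and *Gp93* turned negative and *ERp60* positive in 3 settings each.

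*Sec61alpha* (FBgn0086357, chromosome 2L, 6477182 to 6480575, minus strand) encodes the pore of the channel through which new proteins enter the ER. It had 5568, 5417 and 5206 normalized counts in overexpression libraries, against 5098, 5035 and 5282 in control libraries. Only the third overexpression library lay below the highest control library. The gene had a log2 difference of 0.071 (standard error 0.047, 95% interval -0.032 to 0.17), the largest positive difference after *Cnx14D*, and it was positive in all 16 alternative settings.

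On the FPKM scale, where each library is divided by its total instead of its size factor, *Sec61alpha* had 147.6, 143.9 and 138 FPKM in overexpression libraries, against 132.4, 130.3 and 134.8 FPKM in control libraries. The groups did not overlap on that scale, and so the overlap of this gene depends on the scaling.

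*Xbp1* (FBgn0021872, chromosome 2R, 21143545 to 21145750, plus strand) encodes the transcription factor at the centre of the UPR. It had 9391, 9474 and 9202 normalized counts in overexpression libraries, against 10291, 9976 and 10859 in control libraries. Every overexpression library was lower than every control library, and the overexpression libraries were close together. The means were 9356 ± 139 in overexpression flies and 10375 ± 448 in control flies (SD, n = 3 each), a log2 difference of -0.15 (standard error 0.05, 95% interval -0.26 to -0.041). The gene was not called in the fit or in any alternative setting, where the difference ran from -0.18 to -0.064. Counts per gene do not tell the spliced form of *Xbp1* mRNA from the unspliced one, so its activation is not measured here.

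Ordered by mean level over the 6 libraries, the genes were *Pdi* at 381 FPKM, *ERp60* at 275, *Xbp1* at 256, *Hsc70-3* at 225, *Gp93* at 211, *Sec61alpha* at 138, *Cnx99A* at 84.8 and *Cnx14D* at 1.68. The ranges of neighbours overlapped between *ERp60* and *Xbp1*, between *Xbp1* and *Hsc70-3*, and between *Hsc70-3* and *Gp93*, although within each single library the order of these pairs was the same. The ranges of *Pdi*, *Sec61alpha*, *Cnx99A* and *Cnx14D* were each separate from those of their neighbours. All but *Cnx14D* were among the most abundant genes, within the top 7.93% of the 13196 genes by FPKM.

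Summed over the 8 genes, the libraries held 70545, 69263 and 66621 normalized counts in overexpression flies, against 70014, 67803 and 73550 in control flies. The groups overlapped, with a control library at the top and an overexpression library at the bottom. The 8 genes took 0.388% ± 0.0115 of the assigned reads in overexpression flies and 0.387% ± 0.013 in control flies (SD, n = 3 each).

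The single annotated exon of *Cnx14D* lies inside *para*, the voltage-gated sodium channel gene, on the same strand. Of the 44 annotated exons of *para*, 0 overlap it, and the nearest ones end at 16522153 and start at 16527277, so *Cnx14D* sits in an intron. *para* had 297, 346 and 400.1 normalized counts in overexpression libraries, against 429, 365 and 394 in control libraries. The host gene overlapped between the groups and was not called, with a log2 difference of -0.20 (standard error 0.11, limma adjusted p = 0.324). Whether reads from unspliced *para* RNA contribute to the count of *Cnx14D* was not tested.

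Within 100 kb of *Cnx14D* the table lists 21 other genes, all of them tested. Of these, 4 were called, or 19.0%, beside 12.2% of the 2025 genes tested on the X chromosome. *CG9782* was higher in overexpression flies, with a log2 difference of 0.49 (standard error 0.098, limma adjusted p = 0.008). *Pp2B-14D*, a calcineurin catalytic subunit, was lower at -0.31 (standard error 0.066, adjusted p = 0.012).

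The other called neighbours, *CG9784* and *Ubc7*, overlap each other on opposite strands, and both were lower in overexpression flies. The median log2 difference of the 21 neighbours was -0.041, and their range of -0.31 to 0.65 stayed well under the difference of *Cnx14D*. The upper end was set by *mir-4965*, which had only 2 to 6 reads per library, and the next was *CG9782* at 0.49. The nearest separate genes were *CG9903* to the right, with a log2 difference of 0.19 (adjusted p = 0.424), and *Rbp2* to the left, at 0.093 (adjusted p = 0.375).

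**Figure D2:**
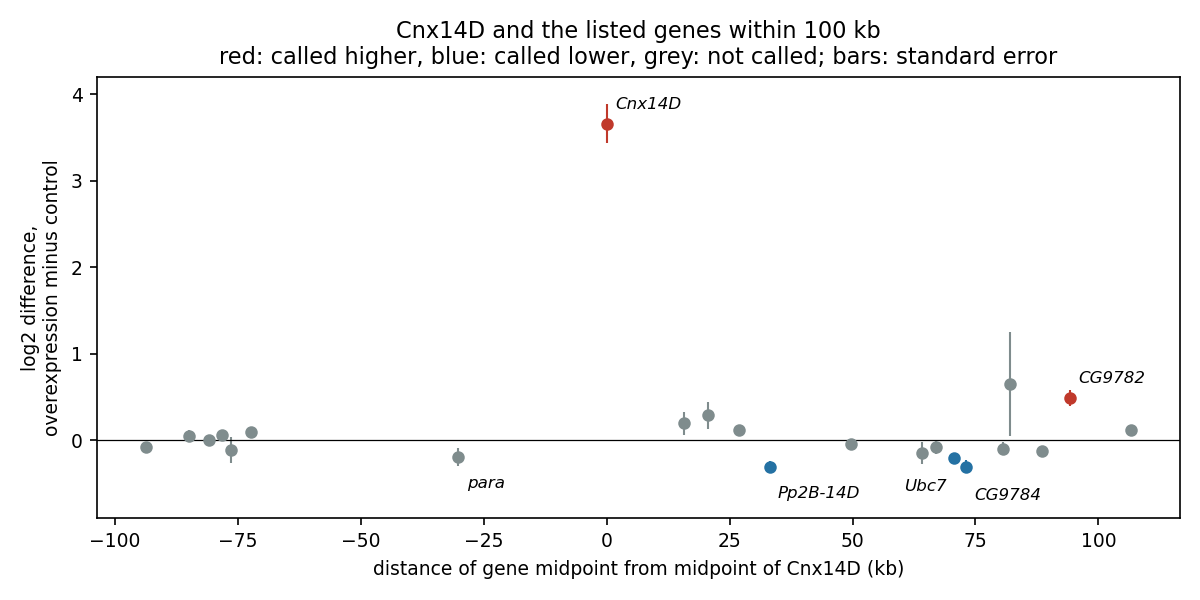
Log2 difference (overexpression minus control) of *Cnx14D* and the 21 other listed genes within 100 kb, against the distance of each gene's midpoint from that of *Cnx14D* in kb. Bars are standard errors, red genes were called higher, blue genes lower and grey genes not called. *Cnx14D* stands at 3.66, above the neighbours, which lie between -0.31 and 0.65.

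The genes whose pattern over the 6 libraries was most like that of *Cnx14D* were sought among 10046 genes with a mean of at least 100 normalized counts. By Pearson's r of the log2 values these were *CG3588*, *lncRNA-CR33942*, *JhI-21* and *CG14419* (each 0.996) and *CG5693* (0.994). With 3 libraries per group, any gene that separates the groups with little spread scores high, so the likeness is given as a description. *CG3588* had a mean of 265 normalized counts in overexpression flies and 0 in control flies, and *CG14419* had 238 and 0.

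Both *CG3588* and *CG14419* are X-linked, as is *Cnx14D*. The other genes named with them are not, with *lncRNA-CR33942* on chromosome 2R and *JhI-21* and *CG5693* on 2L. No control library held a single read of *CG3588* or *CG14419*. Both therefore passed the filter on mean normalized counts only through the overexpression libraries, and a large difference was a condition of their being compared. Differences between the overexpression and control lines other than the transgene cannot be told apart from the overexpression in this design. *JhI-21*, an amino acid transporter, had a much smaller log2 difference of 0.45.

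For *Hsc70-3* the same search gave other genes. Its nearest patterns were *ine*, a transporter (r = 0.997), the proteasome subunits *Rpt3* (0.983) and *Prosalpha2* (0.981), *CG17029* (0.982) and *CG3823* (0.981). Among the 8 ER genes its closest companion was *ERp60* (r = 0.939), and *Gp93* was closest to *Pdi* (r = 0.904). The points are the same 6 libraries in every case, so these values share their normalization. The nearest patterns of *Hsc70-3* are the highest of 10045 genes compared. Over 6 libraries, so large a search can return values this high by chance. They are given as a description, and shared regulation was not tested.

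The wider machinery was read from a list of 62 further ER genes, of which 60 were in the table and tested. Of these, 1 rose and 2 fell in overexpression flies, or 5% called, beside 8.42% of all genes tested. On the log2 scale the difference was positive for 37 and negative for 23, the median was 0.029, and the range was -0.36 to 0.41, beside 6768 positive and 6428 negative differences and a median of 0.0059 over all genes tested. Most members of each group of the list were not called, as the plot of log2 differences by gene group shows.

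**Figure D3:**
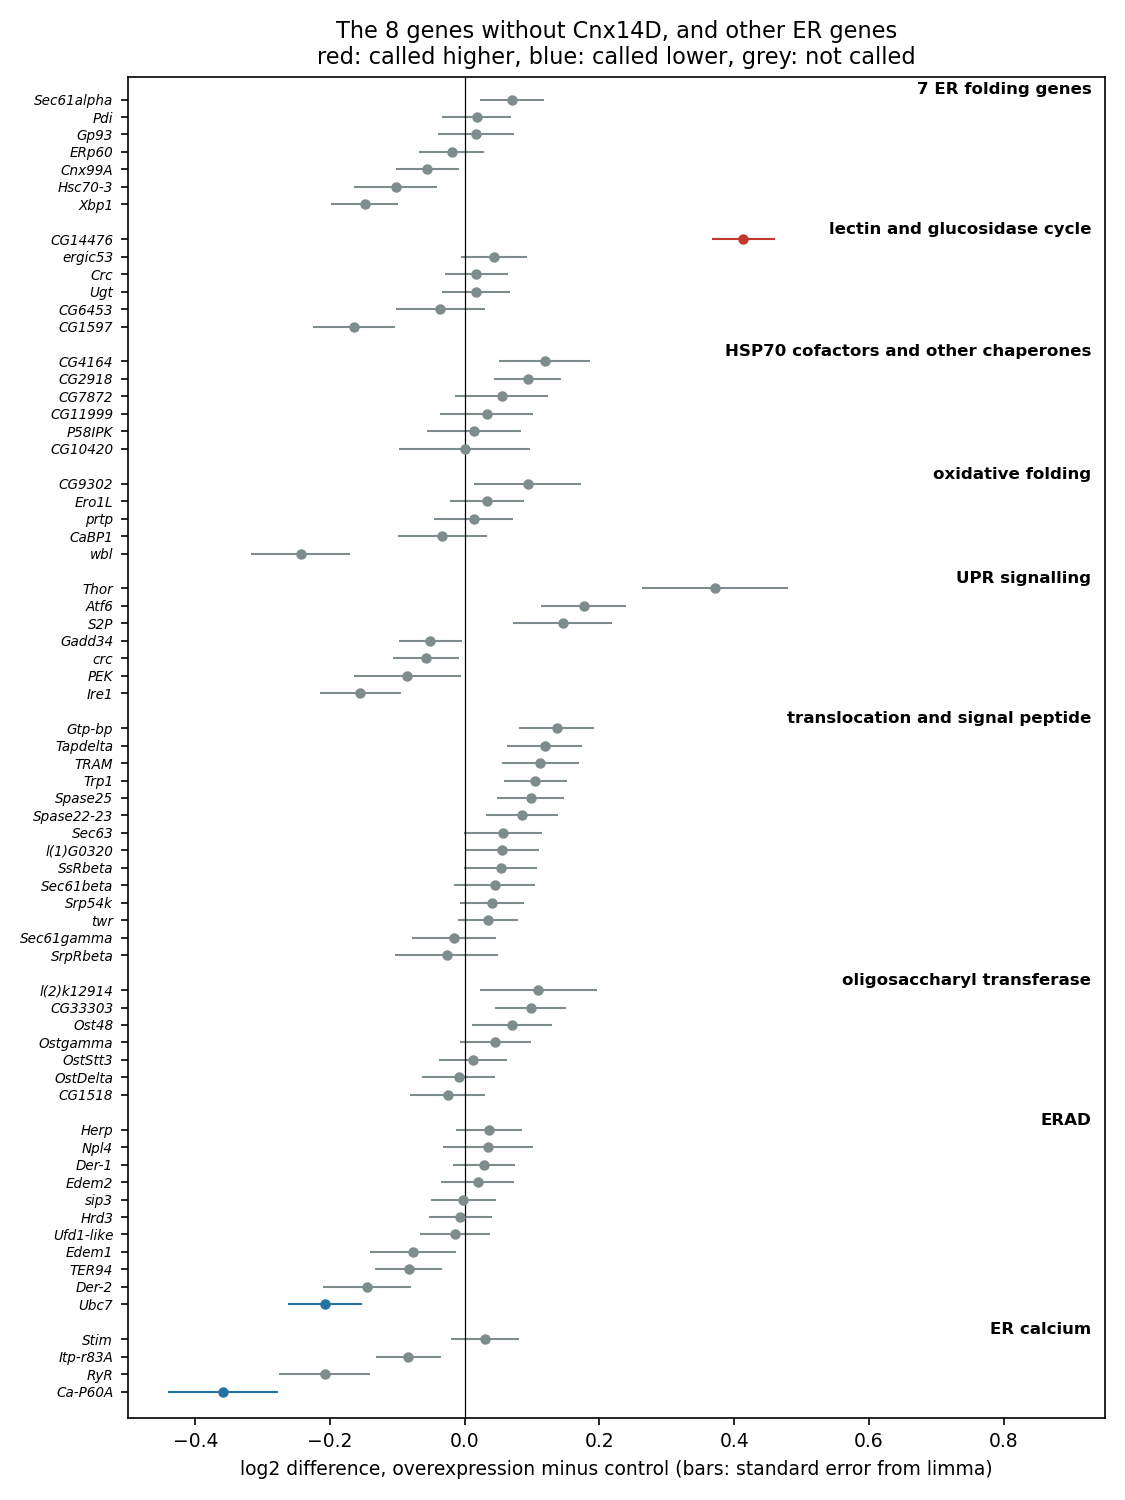
Log2 difference (overexpression minus control) of the ER folding genes other than *Cnx14D* and of 60 further ER genes, grouped by role and labelled with the symbols of the deposited table. Points are estimates, bars are standard errors from limma, red genes were called higher, blue genes lower and grey genes not called. *CG14476* (*GCS2alpha*) at 0.41 is the only red point, and *Ubc7* and *Ca-P60A* (*SERCA*) are the only blue points.

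*GCS2alpha* (listed as *CG14476*, chromosome X, 21600502 to 21605264) encodes the catalytic subunit of glucosidase II, which trims the glucose residues that calnexins recognise. It had 7522, 7171 and 7112 normalized counts in overexpression libraries, against 5550, 5301 and 5515 in control libraries. Every overexpression library was above every control library, by more than the spread within either group. This gave a log2 difference of 0.41 (standard error 0.047, limma adjusted p = 0.000194), and the gene was called in all 16 alternative settings, at 0.39 to 0.48.

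Its regulatory partner *GCS2beta* had a log2 difference of -0.036 and was not called. The other 4 genes of the calnexin cycle were not called either. *Calr*, the soluble lectin related to calnexins and listed as *Crc*, was the most abundant of them at 450.1 FPKM and had a log2 difference of 0.017. *GCS1*, which removes the outermost glucose, had a log2 difference of -0.16 (limma adjusted p = 0.124).

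*SERCA* (listed as *Ca-P60A*, chromosome 2R, 23925077 to 23935884), the pump that fills the ER and sarcoplasmic reticulum with calcium, fell in overexpression flies. It had 36517, 35096 and 42916 normalized counts in overexpression libraries, against 51624, 46271 and 48567 in control libraries. The groups did not overlap, and the third overexpression library came nearest to the controls. The log2 difference was -0.36 (standard error 0.081, limma adjusted p = 0.0167), and the call was lost in 5 of 16 alternative settings, among them those without control replicate 1 (-0.32) or overexpression replicate 2 (-0.30).

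*SERCA* is also expressed in muscle, and muscle markers were read beside it. Of 7 muscle markers, 3 fell (*Mhc*, *Act79B* and *up*), beside 5.24% of all genes tested called lower. The 4 not called were *Mlc2* at -0.23, *wupA* at -0.14, *flightin* at -0.035 and *Act88F* at 0.028. For 5 of the 7 the groups did not overlap, beside 27.3% of all genes tested. A negative difference was found for 6, none was at 0, and the median was -0.23. Their summed level was 124226 to 141931 normalized counts in overexpression libraries and 152099 to 161940 in control libraries. The part of muscle RNA in the difference of *SERCA* was not tested, and in whole flies fewer cells of a type cannot be told apart from less RNA per cell. Of the other calcium genes, *RyR*, the release channel, had a log2 difference of -0.21 (limma adjusted p = 0.0835) and *Stim*, the calcium sensor, one of 0.031.

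*Ubc7* (chromosome X, 16593677 to 16595867), a ubiquitin-conjugating enzyme of ER-associated degradation, fell in overexpression flies. It had 1389, 1382 and 1284 normalized counts in overexpression libraries, against 1580, 1495 and 1607 in control libraries. The groups did not overlap, but the lowest control library was near the highest overexpression library. The gene had a log2 difference of -0.21 (standard error 0.055, limma adjusted p = 0.0375), and the call held in 8 of 16 alternative settings. It was lost without control replicate 1 (-0.20), control replicate 3 (-0.19), overexpression replicate 1 (-0.23) or overexpression replicate 3 (-0.17). The call was also lost with DESeq2 (-0.21), quantile normalization (-0.19), scaling to the library total (-0.17) and no intensity trend (-0.21). The gene shares 732 bases with *CG9784*, which was also lower, at 502 and 623 normalized counts in overexpression and control flies, and no source consulted says whether counting used strand, so reads of the pair may not be told apart there. None of the other 10 degradation genes was called, and *Npl4*, the most abundant of them at 259 FPKM, had a log2 difference of 0.035.

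None of the 7 genes of UPR signalling was called by limma, where 3 had an unadjusted p under 0.05, beside 22.2% of all genes tested. *Thor*, a translation inhibitor transcribed downstream of the PERK branch, had 4533, 5227 and 4150 normalized counts in overexpression libraries, against 3179, 4366 and 3273 in control libraries. The second control library was above the third overexpression library, so the groups overlapped. On the log2 scale the difference was 0.37 (standard error 0.11, limma adjusted p = 0.0546), and *Thor* was called in 5 of 16 alternative settings. With the replicate block the difference was also 0.37 (standard error 0.055, limma adjusted p = 0.000446). The labels name no pairing of libraries, and same-numbered libraries did not deviate together over all genes tested. The other settings with a call were quantile normalization (0.43), scaling to the library total (0.41), and those without control replicate 2 (0.52) or overexpression replicate 3 (0.45). With DESeq2 the gene was not called, at 0.36 (DESeq2 adjusted p = 0.279).

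The sensors differed little and in different directions. *Atf6* had a log2 difference of 0.18 (standard error 0.063, limma adjusted p = 0.114), *Ire1*, which splices *Xbp1* mRNA, had -0.15 (standard error 0.06, adjusted p = 0.147), and *PEK*, the fly PERK, had -0.085 (adjusted p = 0.587). *crc*, the fly ATF4, had a log2 difference of -0.057 (adjusted p = 0.554), and *Gadd34*, which reverses the action of PEK, had -0.051 (adjusted p = 0.586). Of the 7 genes, 3 had a positive and 4 a negative difference, with a median of -0.051. For 4 of the 7 (*Atf6*, *Ire1*, *crc* and *Gadd34*) the groups did not overlap, beside 27.3% of all genes tested.

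**Figure D4:**
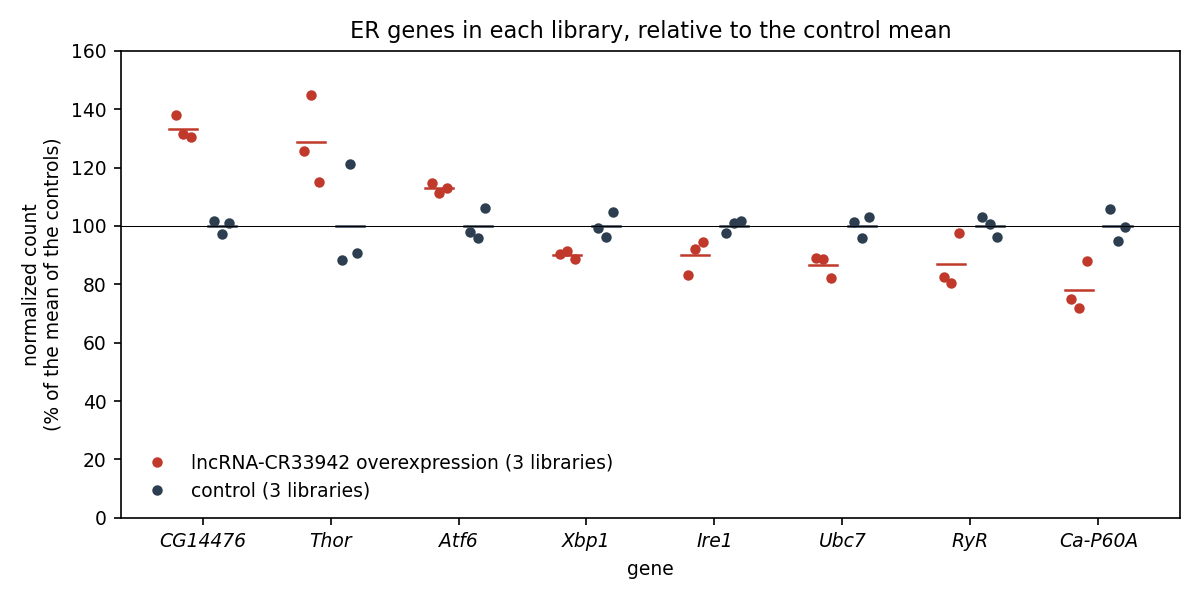
Normalized count of 8 ER genes in each library as a percentage of the mean of the control libraries, labelled with the symbols of the deposited table. Points are libraries (3 overexpression and 3 control) and bars are group means. *CG14476* (*GCS2alpha*) lies above all controls with the largest separation, *Atf6* also lies above them, *Xbp1*, *Ire1*, *Ubc7* and *Ca-P60A* (*SERCA*) lie below all controls, and *Thor* and *RyR* overlap.

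The 14 tested genes of translocation and signal peptide processing, the neighbours of *Sec61alpha* in function, were not called. Their median log2 difference was 0.056, with 12 positive and 2 negative differences. In limma 2 of the 14 had an unadjusted p under 0.05, beside 22.2% of all genes tested, and for 3 of the 14 the groups did not overlap, beside 27.3%. *Gtp-bp*, a subunit of the receptor that docks ribosomes, had the largest at 0.14 (limma adjusted p = 0.168), and *Trp1*, the fly Sec62, had 0.11 (adjusted p = 0.203). *Sec61beta*, the most abundant, had 0.044. The summed level of the 14 genes was 32363 to 34267 normalized counts in overexpression libraries and 31294 to 31985 in control libraries. *Sec61beta* turned negative in 1 of 16 alternative settings.

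The remaining groups held no call. The 6 cofactors of Hsc70-3 and other chaperones had a median log2 difference of 0.044, with the large chaperone *Grp170* at 0.093. The 7 subunits of oligosaccharyl transferase, which attaches glycans to new chains, had a median of 0.046, with *OstStt3* at 0.012. The 5 other genes of oxidative folding had a median of 0.013, with *CaBP1*, a Pdi relative, at -0.033, while *wbl*, another relative, had -0.24 (limma adjusted p = 0.0613). In limma, 0 of the 6 cofactor genes, 0 of the 7 transferase genes and 1 of the 5 oxidative folding genes had an unadjusted p under 0.05, beside the 22.2% of all genes.

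Markers of other tissues, some of them secretory and rich in ER genes, were read from the same libraries. Their counts stand beside 3.18% of all genes tested called higher and 5.24% called lower. All 4 tested fat body markers (*Fbp1*, *Fbp2*, *apolpp* and *Lsp2*) fell, with a median of -1.64, but the groups overlapped for *Fbp1* and *apolpp*. Their summed level was 24188 to 35069 normalized counts in overexpression libraries and 37116 to 41722 in control libraries. Most of that sum came from *apolpp*, whose log2 difference was only -0.42. Of 12 accessory gland markers 3 fell, with a median of -0.13, and of 10 midgut markers 2 fell, with a median of 0.054. Of 4 ejaculatory bulb markers 2 fell, with a median of -0.24 and a summed level of 101602 to 116673 normalized counts in overexpression libraries and 125126 to 129443 in control libraries. Of 8 tested hemocyte markers 3 rose and 2 fell. Of 14 testis markers 0 were called, and 2 had an unadjusted p under 0.05 in limma, beside 22.2% of all genes tested. Their differences were positive for 4 and negative for 10. The groups did not overlap for 7 of the 14 testis, 7 of the 12 accessory gland and 2 of the 10 midgut markers. The same held for 2 of the 4 ejaculatory bulb and 5 of the 8 hemocyte markers, beside 27.3% of all genes tested. The part of these tissues in the levels of the 8 genes was not tested. Of 7 yolk and ovary genes in the table only the yolk protein gene *Yp3* passed the filter, and it fell, with 391 ± 153 normalized counts in overexpression flies and 841 ± 17.5 in control flies (SD, n = 3 each). Its log2 difference was -1.19 (standard error 0.22, limma adjusted p = 0.00532), while the other 6 had means under 6 normalized counts in both groups.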

How the data were processed

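RNA of whole male flies was analysed in 3 overexpression and 3 control libraries. Per the labels' processing notes, reads were aligned with HISAT2 2.0.5 to dm6, counted with featureCounts 1.5.0-p3 and compared with DESeq2. The table the authors deposited is named FPKM, but its values are a signal, namely counts of reads scaled by the size factor of their library, which was tested on the values. Multiplied by the factor, 100% of values were whole reads (tolerance 0.01). The authors' own fold changes, p-values and group means in the table were not used, and the other deposited column used was gene length. FPKM were computed here from the recovered reads and that length.

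Log2(normalized count + 1) was compared by limma 3.58.1 (R 4.3.3), using an intensity trend and p-values adjusted by Benjamini-Hochberg over all 13196 genes with a mean FPKM of at least 0.5. The pseudocount of 1 shrinks differences of genes with few reads. Library totals (16894595 to 19423287 reads) limit precision most for rare genes. Replicates differed by more than sampling noise (chi-square per degree of freedom 5.24 to 9.37). The fit was tested on simulated data. Alternatives were edgeR 4.0.16, DESeq2 1.42.0 and limma voom on recovered reads, other scalings, filters and pseudocounts, no trend, a replicate block and each library left out. Figures used Python 3.11.15, pandas 2.3.3 and matplotlib 3.10.9.

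The 8 genes and all lists were chosen with earlier results of these data known. Genes were named by a rule: the 8 genes, the overexpressed lncRNA, called genes of the ER list and the most abundant one not called per group, the 5 patterns most like *Cnx14D* and *Hsc70-3*, and the nearest genes to *Cnx14D*. *GCS2beta*, *GCS1*, *RyR*, *Trp1*, *Gtp-bp*, *wbl*, *mir-4965*, the UPR genes other than *Thor* and the called neighbours of *Cnx14D* were named after their values were seen. Symbols follow the reference annotation (Ensembl BDGP6 gene models), where 15402 of 15656 identifiers were found and 15153 had the same positions, including all 8 genes. No sequences are shown.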

Additional observations from a re-analysis of the deposited data

How the results depend on the processing

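The calls rest on few libraries and on the variance model. Called genes numbered 420 higher and 691 lower, but 94 and 99 without the intensity trend, 368 and 635 with DESeq2, and 632 and 503 with scaling to the library total, which moved the share of calls that were higher to 55.7% from 37.8% and the median of all genes to 0.046. Leaving out single libraries gave 201 to 393 higher and 328 to 618 lower (201 and 328 without control replicate 1, 235 and 394 without control replicate 3, 279 higher without overexpression replicate 1). The replicate block gave 517 higher and 846 lower, and 2 called higher in the wider ER list. Same-numbered libraries did not deviate together over all genes tested (correlations -0.034, 0.052 and -0.036). With 3 libraries per group this cannot exclude a shared batch that acts on some genes, and the labels do not name one. *Cnx14D* and *GCS2alpha* kept their calls in every alternative that tested them, and *Cnx14D* was not tested at a mean FPKM of at least 5. This is a description and adds no support, because the 8 genes and all lists were chosen with results of these data known. The median of the 8 genes was 0.079 with quantile normalization. In the wider ER list, quantile normalization and scaling to the library total each gave 2 called higher and 1 lower, DESeq2 gave 1 lower and no trend 0 lower. Its median was 0.070 with scaling to the library total and 0.011 to 0.040 with single libraries left out. Leaving out libraries gave 1 to 2 higher (2 without control replicate 2 or overexpression replicate 3, when *Thor* was called) and 0 to 2 lower (0 without control replicate 1, control replicate 3 or overexpression replicate 1, and 1 without overexpression replicate 2). *SERCA* lost its call without the trend (-0.36) and without control replicate 1 (-0.32), control replicate 3 (-0.36), overexpression replicate 1 (-0.33) or overexpression replicate 2 (-0.30). The causes were not tested.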
